A study of Arabidopsis thaliana with 6 samples.

Results

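The genes described here make, break down, perceive and answer abscisic acid (ABA) in Arabidopsis thaliana. They are 41 loci named by identifier, from NCED3 to HB12, and all 41 were found among the 33557 loci of the expression table. They cover 4 synthesis enzymes, 1 enzyme that frees the hormone from its glucose ester, 4 catabolic enzymes, 9 receptors, 9 phosphatases, 3 kinases, 5 transcription factors and 6 response genes. Messenger RNA was sequenced from the whole aerial part of Col-0 plants at 21 days of age, grown on soil at 22 °C in 12 h days under 100 to 120 µmol of light per square metre and second, and harvested at zeitgeber time 12. One group is wild type and the other is camta1/2/3/sid2, a quadruple mutant of the calmodulin-binding transcription factors CAMTA1, CAMTA2 and CAMTA3 and SID2, the isochorismate synthase ICS1 that makes salicylic acid. The labels name 3 libraries for each genotype but no alleles, and neither a sid2 single mutant nor a camta mutant with intact SID2 is analysed here, so the parts of the 4 mutations cannot be told apart. The table gives 1 FPKM value per genotype and locus (fragments mapped to a transcript, relative to its length and to the total mapped in the library), which can be compared between genes. How the 3 libraries of a genotype vary cannot be seen from it and depth is unknown, so no difference below carries an error or a test.

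ABA is a stress hormone that closes stomata and raises dehydration-protective proteins. It is cut from carotenoids in the plastid and finished in the cytosol, and CYP707A hydroxylases remove it. Receptors of the PYR/PYL family that hold ABA bind and block clade A protein phosphatases, which otherwise keep SnRK2 kinases switched off. The freed kinases phosphorylate ABF transcription factors and the anion channel SLAC1. Many of the phosphatase genes are themselves induced by ABA, which closes a feedback loop.

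Most of the ABA genes were within 1.5-fold between the genotypes, and the exceptions were low-level members. Of the 41 genes, 35 reached at least 1 FPKM in at least 1 genotype and were analysed on the scale of log2(FPKM + 1), with the wild-type value subtracted from the mutant value (the log2 ratio). On that scale 31 of the 35 lay within 1.5-fold, where 96.2% of all analysed loci did. Lower in the mutant by at least 1.5-fold were the synthesis gene NCED3 and the phosphatase genes HAI1 and HAI2, that is 3 members where 1.99% of the 18547 analysed loci of the genome passed the same mark. PYL2, a receptor gene, was the 1 member at least 1.5-fold higher, where 1.81% of all analysed loci were. No member reached 2-fold on this scale in either direction, against 0.690% of all loci lower and 0.787% higher. Because 1 FPKM is added before taking logs, low genes appear less different than they are. As plain ratios of FPKM, 3 of the 35 analysed members (NCED3, HAI1 and HAI2) were at least 2-fold lower and 0 were at least 2-fold higher, and among all analysed loci above 0 in both genotypes 0.959% were lower and 1.03% higher by that measure.

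The direction of small differences followed that of the whole transcriptome. Of the 35 analysed members 26 were lower and 9 higher in the mutant, or 74.3% lower, and 64.6% of all analysed loci were lower. The median log2 ratio of the members was -0.07 and that of all loci -0.06. Read against the median of all loci, 21 members lay below it and 14 above. The differences beyond 1.5-fold were found at low levels, where FPKM rests on fewer fragments. Whether this accounts for them was not tested. The 19 members with a mean of 10 FPKM or more were all within 1.5-fold, with log2 ratios from -0.44 for BGLU18 to 0.22 for PYL1; in that level range 1.64% of all loci were lower by at least 1.5-fold and 1.24% higher. Of the 16 members under 10 FPKM, 3 were at least 1.5-fold lower and 1 was higher, where 2.42% and 2.48% of the loci in that level range were.

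**Figure D1:**
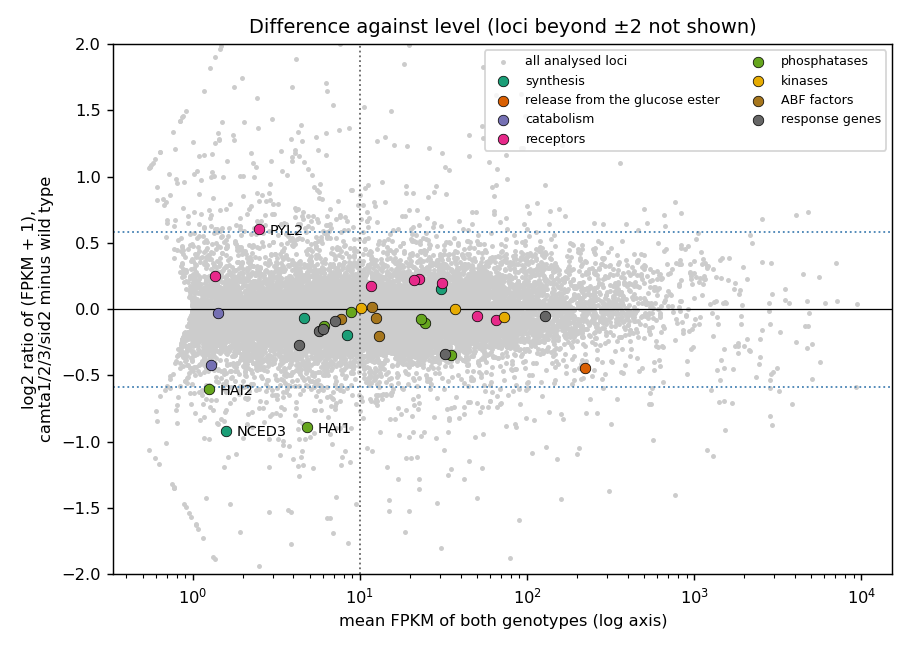
Log2 ratio of (FPKM + 1), mutant minus wild type, against the mean FPKM of both genotypes on a log axis, for all 18547 analysed loci (grey; those beyond 2 on either side are not drawn) and the 35 analysed ABA genes (coloured by step). Blue dotted lines mark 1.5-fold and the vertical line 10 FPKM; the 4 labelled members beyond 1.5-fold all lie under 10 FPKM.

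**Figure D2:**
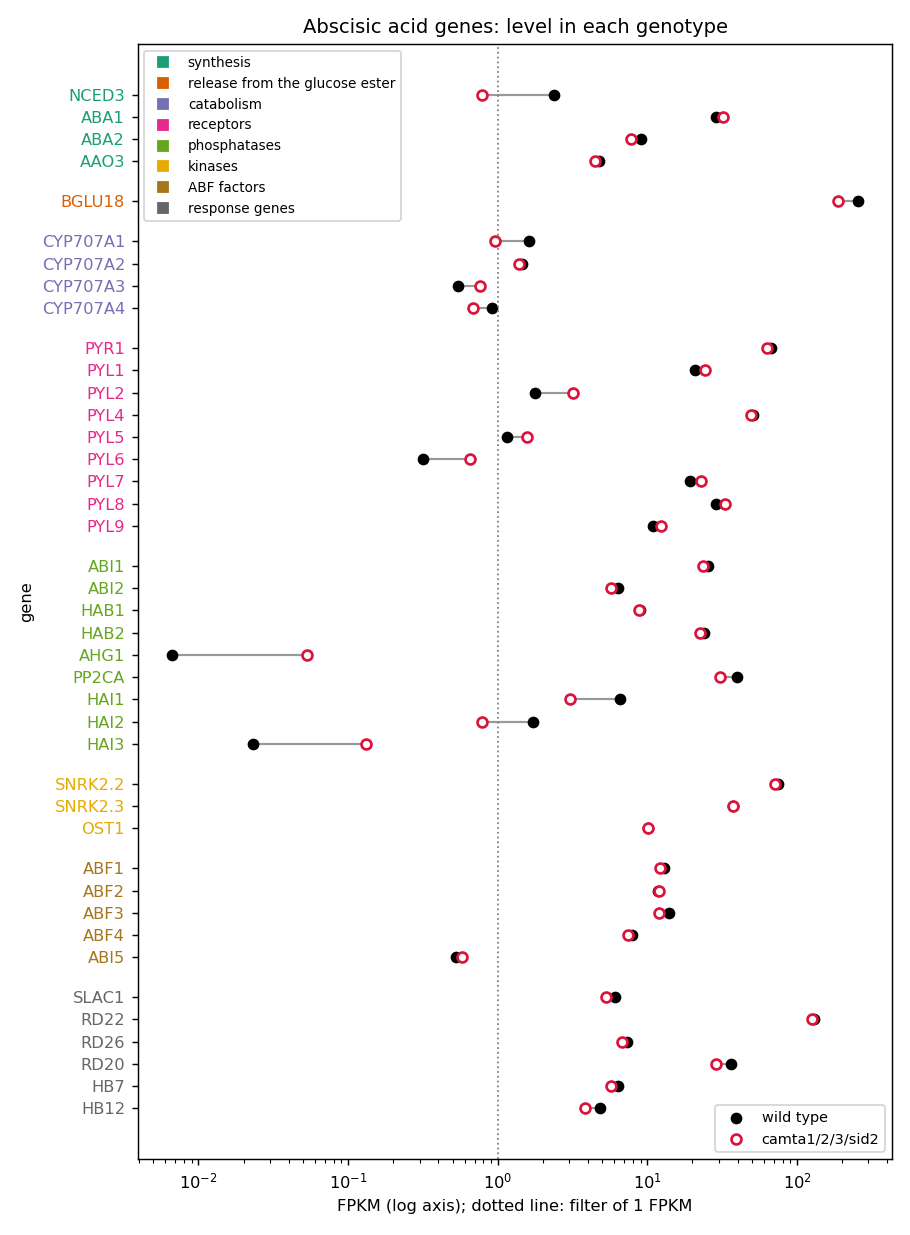
FPKM of each of the 41 ABA genes in the wild type (black) and the mutant (red rings) on a log axis, grouped by step and coloured by it; the dotted line marks the filter of 1 FPKM. Most pairs of points nearly coincide, while NCED3, HAI1 and HAI2 are lower and PYL2 higher in the mutant, and AHG1 and HAI3 are far under the filter in both.

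Of the 4 synthesis genes, the one for the committed step, NCED3, had the largest difference. NCED3 (AT3G14440), the dioxygenase that cleaves the carotenoid precursor and whose drought induction sets the rate of ABA synthesis, stood at 2.36 FPKM in wild-type plants and 0.780 in the mutant. That is 3.03-fold lower as a plain ratio and a log2 ratio of -0.92, and NCED3 passed the filter through its wild-type value alone. ABA1 (AT5G67030), the zeaxanthin epoxidase upstream of it, was the highest of the 4 enzymes, at 28.7 and 32.0 FPKM, and made up 64.0% of the summed FPKM of the step in wild-type plants and 71.1% in the mutant. The next enzymes downstream were close between genotypes. ABA2 (AT1G52340), the dehydrogenase that makes abscisic aldehyde, was at 9.02 FPKM in wild-type plants and 7.75 in the mutant. AAO3 (AT2G27150), the oxidase that turns the aldehyde into ABA, was at 4.74 and 4.47. The order of the 4 levels, ABA1, ABA2, AAO3 and NCED3, was the same in both genotypes.

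Other genes of synthesis and conjugation, taken from a separate list of 9, added no difference of that size. Only 4 of the 9 reached 1 FPKM, 2 of them higher and 2 lower, where 64.6% of all analysed loci were lower. Their median log2 ratio was 0.00 and none was beyond 1.5-fold, where 1.99% of all analysed loci were lower and 1.81% higher by that much. ABA4 (AT1G67080), which acts in neoxanthin synthesis, was at 69.5 and 72.2 FPKM, and UGT71C5 (AT1G07240), which conjugates ABA to glucose, at 13.2 and 13.0. The NCED3 paralogues were all under the filter in both genotypes. NCED5 (AT1G30100) was the highest of these, at 0.581 FPKM in wild-type plants and 0.319 in the mutant, while NCED2, NCED6 and NCED9 were at or near 0.

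BGLU18 (AT1G52400), the endoplasmic reticulum glucosidase that releases ABA from its glucose ester, had the highest level of all 41 genes, at 256 FPKM in wild-type plants and 188 in the mutant. This was 1.36-fold lower, a log2 ratio of -0.44, which does not reach 1.5-fold. It does lie below the 5th percentile of all analysed loci, which was -0.38. BGLU33 (AT2G32860), the vacuolar glucosidase with the same activity, was at 40.9 and 32.5 FPKM. BGLU18 protein is also a component of leaf endoplasmic reticulum bodies. The 4 other genes of those bodies were not lower together: TSA1 (AT1G52410), the genomic neighbour of BGLU18, was at 37.7 and 29.7 FPKM, whereas NAI2 (AT3G15950) was at 8.59 and 12.8, the regulator NAI1 (AT2G22770) at 1.61 and 2.28, and BGLU23 (AT3G09260) at 51.6 and 55.8.

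The catabolic genes were the lowest step of the pathway, with a summed level of 4.52 FPKM in wild-type plants and 3.80 in the mutant over the 4 CYP707A genes. CYP707A1 (AT4G19230) was at 1.62 FPKM in wild-type plants and 0.957 in the mutant, with a log2 ratio of -0.42, and passed the filter through the wild type alone. Its log2 ratio lies below the 5th percentile of all analysed loci, which was -0.38. CYP707A2 (AT2G29090), best known from seeds, was at 1.446 and 1.395. CYP707A3 (AT5G45340), at 0.540 and 0.757, and CYP707A4 (AT3G19270), at 0.919 and 0.688, were under the filter. The highest of the 4 was CYP707A1 in wild-type plants and CYP707A2 in the mutant, but all 4 levels were too low for this order to be firm.

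The receptor genes were mostly slightly higher in the mutant. Of 8 analysed receptors 6 were higher and 2 lower, against 35.4% of all analysed loci higher, and 7 of the 8 lay above the median of all loci; PYL4 changes sides when ratios are centred on that median. The median log2 ratio was 0.21. PYL2 (AT2G26040) had the largest difference, from 1.77 FPKM in wild-type plants to 3.20 in the mutant, 1.81-fold higher, a log2 ratio of 0.60. It supplied 0.881% of the summed receptor level in wild-type plants and 1.52% in the mutant. PYL6 (AT2G40330), a minor receptor gene under the filter, was at 0.317 and 0.648 FPKM, and PYL5 (AT5G05440) at 1.16 and 1.57.

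The abundant receptors differed by less. PYR1 (AT4G17870), the founding member, was at 67.2 FPKM in wild-type plants and 63.4 in the mutant, and PYL4 (AT2G38310) at 50.9 and 49.1. PYL8 (AT5G53160, also RCAR3) was at 28.8 and 33.2 FPKM, PYL1 (AT5G46790) at 20.7 and 24.4, PYL7 (AT4G01026) at 19.4 and 22.8, and PYL9 (AT1G01360, also RCAR1) at 10.9 and 12.3. The order of all 9 receptor levels was the same in both genotypes, with the neighbours PYL1 and PYL7 less than 2 FPKM apart in each. PYR1, PYL1 and PYL2, which form dimers until they bind ABA, together made 44.6% of the receptor sum in wild-type plants and 43.2% in the mutant. The other 5 members of the family in Arabidopsis, PYL3 and PYL10 to PYL13, were under 1 FPKM in both genotypes, and PYL3, PYL12 and PYL13 were listed at 0.

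**Figure D3:**
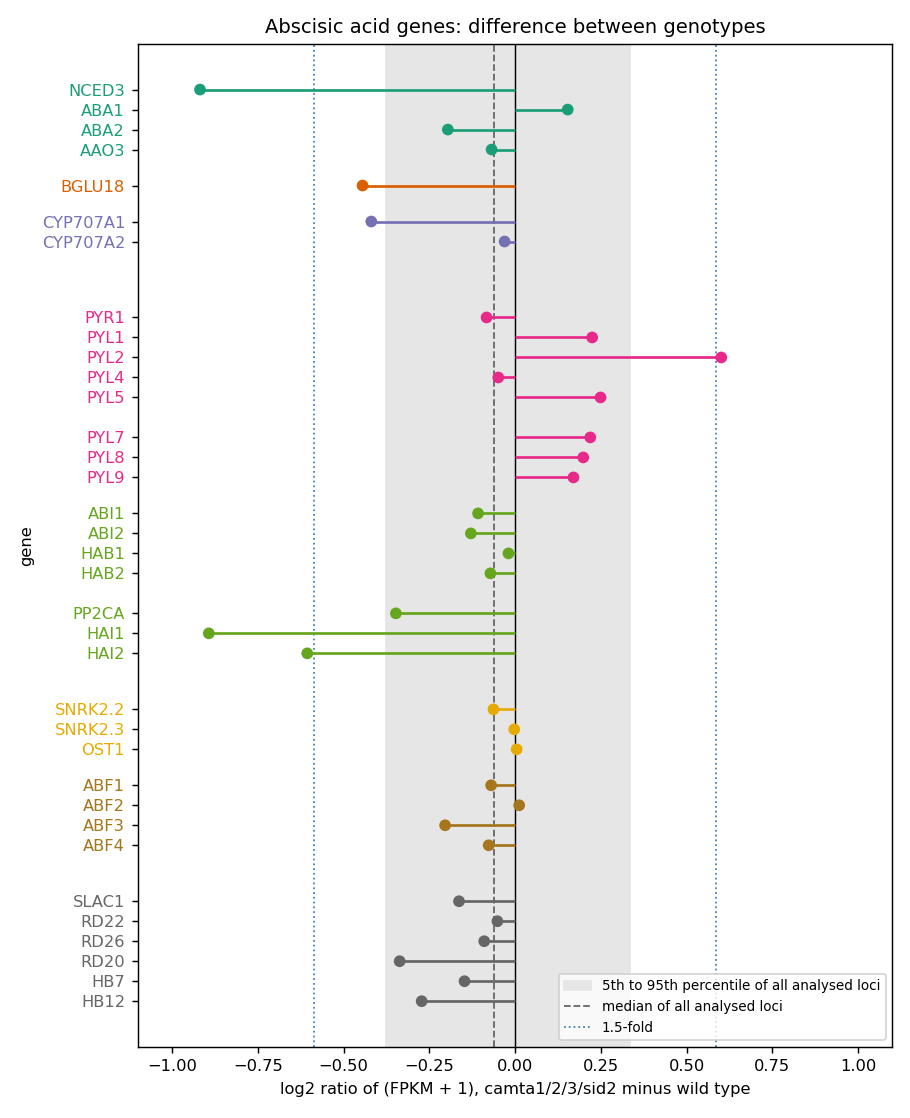
Log2 ratio of (FPKM + 1), mutant minus wild type, for the 35 analysed ABA genes, coloured by step. The grey band spans the 5th to the 95th percentile of all analysed loci (-0.38 to 0.33), the dashed line their median (-0.06) and the blue dotted lines 1.5-fold; 6 of 8 receptors point right and all 7 phosphatases left, except that PYL4 and HAB1 lie to the right of the dashed line.

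The phosphatase genes were lower in the mutant in 7 of 7 analysed members, where 64.6% of all analysed loci were lower; HAB1 lies above 0 when ratios are centred on the median of all loci. The 3 largest differences were in HAI1, HAI2 and PP2CA. HAI1 (AT5G59220), a highly ABA-induced phosphatase gene also known from senescing leaves, stood at 6.53 FPKM in wild-type plants and 3.06 in the mutant. It was 2.14-fold lower, a log2 ratio of -0.89. HAI2 (AT1G07430), its close relative, was at 1.72 and 0.786 FPKM, 2.19-fold lower, a log2 ratio of -0.61, and passed the filter through the wild type alone. PP2CA (AT3G11410, also AHG3), the most abundant phosphatase transcript, was at 39.4 and 30.8 FPKM, a log2 ratio of -0.35.

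The remaining phosphatases were close between genotypes or barely detected. ABI1 (AT4G26080), the first of the family to be linked to ABA, was at 25.3 FPKM in wild-type plants and 23.4 in the mutant, and its nearest paralogue ABI2 (AT5G57050) at 6.38 and 5.75. HAB2 (AT1G17550) was at 23.7 and 22.5 and HAB1 (AT1G72770) at 8.86 and 8.73. AHG1 (AT5G51760), a phosphatase of seeds, was at 0.00665 and 0.0530 FPKM, and HAI3 (AT2G29380), the third HAI gene, at 0.0230 and 0.132. These levels are so low that no fold or direction is read from them. The summed level of the 3 HAI genes was 8.28 FPKM in wild-type plants and 3.98 in the mutant, which is 7.39% and 4.18% of the phosphatase sum.

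Upstream sequence is shown for the 3 members lower by at least 1.5-fold, NCED3, HAI1 and HAI2, and for PP2CA, the next phosphatase by size of difference, because ABA-responsive genes commonly carry an ABA-responsive element, with the core ACGTG, near the start of transcription. Each window holds the 250 bases before the annotated gene start, read from RefSeq's TAIR10.1 assembly and annotation by locus identifier; all 4 genes lie on the minus strand and the bases are given 5′ to 3′ along the gene. The windows are chr3:4834016-4834265 for NCED3, chr5:23896940-23897189 for HAI1, chr1:2282829-2283078 for HAI2 and chr3:3585851-3586100 for PP2CA. Capitals mark ACGTG and the CAMTA-type cores CGCG and CGTGT on either strand, with CACGTG and ACGCG as longer forms of them.
NCED3: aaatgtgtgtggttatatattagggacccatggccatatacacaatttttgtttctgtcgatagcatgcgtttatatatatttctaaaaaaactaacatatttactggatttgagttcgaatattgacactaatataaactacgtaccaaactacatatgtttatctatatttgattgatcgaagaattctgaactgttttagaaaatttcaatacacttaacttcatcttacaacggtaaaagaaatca
HAI1: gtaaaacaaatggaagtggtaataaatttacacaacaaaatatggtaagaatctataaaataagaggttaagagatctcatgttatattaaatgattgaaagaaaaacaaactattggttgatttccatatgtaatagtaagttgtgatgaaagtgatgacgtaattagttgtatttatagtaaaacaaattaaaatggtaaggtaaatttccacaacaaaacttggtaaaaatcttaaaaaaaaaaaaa
HAI2: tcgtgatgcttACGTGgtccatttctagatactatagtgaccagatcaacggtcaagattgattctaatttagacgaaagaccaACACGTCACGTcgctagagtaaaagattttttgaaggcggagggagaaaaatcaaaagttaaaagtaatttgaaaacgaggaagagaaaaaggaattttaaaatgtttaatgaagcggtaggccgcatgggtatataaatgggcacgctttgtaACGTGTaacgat
PP2CA: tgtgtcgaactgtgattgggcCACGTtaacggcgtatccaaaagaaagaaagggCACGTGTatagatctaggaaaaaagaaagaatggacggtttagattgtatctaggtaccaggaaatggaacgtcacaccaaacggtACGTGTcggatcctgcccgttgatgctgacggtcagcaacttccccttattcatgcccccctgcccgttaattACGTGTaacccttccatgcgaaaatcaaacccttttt

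HAI2 held 4 matches to ACGTG and PP2CA 5, counting the palindrome CACGTG of PP2CA on both strands. No match to any of the motifs was present in these windows of NCED3 and HAI1, nor in that of PYL2. HAI1 has another annotated transcript that starts further downstream, and its own upstream bases were not searched. Over all 41 members, 20 windows (48.8%) held ACGTG, while 22.9% of the 27443 protein-coding promoter windows of the same length did. They were spread unevenly over the steps, with 6 of 9 phosphatases, 4 of 5 ABF factors and 2 of 9 receptors. CGTGT was present in 17 members (41.5%) and in 22.1% of all windows, but 19 of its 29 matches in the members overlapped an ACGTG match. Of the 17 members, 9 held a CGTGT match that overlapped none. CGCG was present in 4 members, HAB2, AHG1, HAI3 and SNRK2.2, or 9.76%, and in 10.1% of all windows. ACGCG, its longer form, was in 3 members (7.32%) and 6.87% of all windows, and CACGTG in 8 members (19.5%) and 6.49%. A match describes letters and is not a binding site, and whether these motifs bear on the differences was not tested.

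The kinases were the step with the smallest differences. SNRK2.2 (AT3G50500) was at 74.4 FPKM in wild-type plants and 71.2 in the mutant, SNRK2.3 (AT5G66880) at 37.1 and 37.0, and OST1 (AT4G33950, SnRK2.6), the guard cell kinase that opens SLAC1, at 10.1 in both. Their log2 ratios ran from -0.06 to 0.00. Among 7 other SnRK2 genes, most of which respond to osmotic stress and not or weakly to ABA, 6 were analysed. Of these 4 were higher and 2 lower, where 35.4% of all analysed loci were higher. SNRK2.8 (AT1G78290), a kinase that also phosphorylates the salicylic acid co-activator NPR1, stood apart at 5.97 FPKM in wild-type plants and 12.0 in the mutant, with a log2 ratio of 0.90. SNRK2.7 (AT4G40010) was at 1.13 and 0.739 FPKM, and SNRK2.5 (AT5G63650) at 1.75 and 2.25. SNRK2.7 passed the filter through its wild-type value alone.

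**Figure D4:**
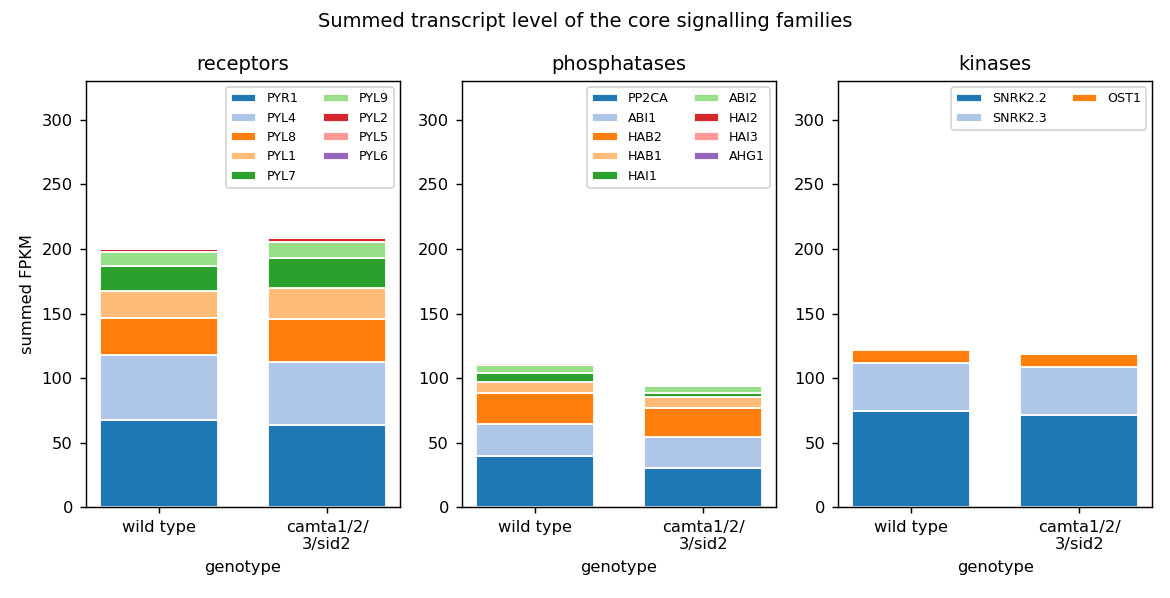
Summed FPKM of the receptor, phosphatase and kinase genes in wild-type plants and the mutant, stacked by gene from the most abundant at the bottom. The receptor sum is 201 and 211 FPKM, the phosphatase sum 112 and 95.2, and the kinase sum 122 and 118; each bar is 1 value per genotype with no error.

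Summed by family, the core signalling genes differed by small amounts. Receptors summed to 201 FPKM in wild-type plants and 211 in the mutant, and phosphatases to 112 and 95.2. The receptor sum was 1.80 times the phosphatase sum in wild-type plants and 2.21 times in the mutant. The kinase sum, at 122 and 118 FPKM, was 1.09 and 1.24 times that of the phosphatases. These are ratios of transcript levels summed over the whole aerial part, in which fewer cells of a type and less RNA per cell cannot be told apart.

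The ABF transcription factor genes, which bind the ABA-responsive element, were close between the genotypes. ABF3 (AT4G34000) had the largest difference of the 4 analysed, at 14.0 FPKM in wild-type plants and 12.0 in the mutant, with a log2 ratio of -0.20. ABF1 (AT1G49720) was at 12.9 and 12.2 FPKM, ABF2 (AT1G45249, also AREB1) at 11.8 and 11.9, and ABF4 (AT3G19290, also AREB2) at 7.93 and 7.47. ABI5 (AT2G36270), the related factor of germinating seeds, was under the filter, at 0.527 and 0.581.

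In a separate list of 18 other transcription regulators of the pathway, 13 were analysed, 6 higher and 7 lower, where 64.6% of all analysed loci were lower. Their median log2 ratio was -0.06 and 0 were beyond 1.5-fold, where 1.99% of all analysed loci were lower and 1.81% higher by that much. AFP1 (AT1G69260), an ABI5-binding repressor induced by ABA, was at 1.56 FPKM in wild-type plants and 0.914 in the mutant. It passed the filter through its wild-type value alone. GBF3 (AT2G46270), a G-box binding factor, was at 2.22 and 1.43. NAC019 (AT1G52890), a NAC factor of the RD26 group, lay on the other side, at 1.38 and 1.91.

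The response genes were all lower by small amounts, 6 of 6, where 64.6% of all analysed loci were lower; RD22 lies above 0 when ratios are centred on the median of all loci. RD20 (AT2G33380), a caleosin of lipid bodies, was at 36.3 FPKM in wild-type plants and 28.5 in the mutant, 1.27-fold lower. HB12 (AT3G61890) was at 4.84 and 3.83 and HB7 (AT2G46680) at 6.39 and 5.68; both encode homeodomain factors that activate clade A phosphatase genes. RD26 (AT4G27410), a NAC factor, was at 7.31 and 6.81 FPKM, and RD22 (AT5G25610), a dehydration-induced BURP protein, at 131 and 126. Their median log2 ratio was -0.16, and 0 of the 6 were beyond 1.5-fold. Of all analysed loci 1.99% were at least 1.5-fold lower and 1.81% higher.

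SLAC1 (AT1G12480, OZS1 in RefSeq), the guard cell anion channel that OST1 phosphorylates, was at 6.08 FPKM in wild-type plants and 5.32 in the mutant, with a log2 ratio of -0.16. The 8 guard cell markers of a separate list were all detected, 1 higher and 7 lower, where 64.6% of all analysed loci were lower. The median of the 8 log2 ratios was -0.06, close to that of all loci, and 4 of the 8 lay below the median of all loci and 4 above. Their summed level was 144 FPKM in wild-type plants and 145 in the mutant. GC1 (AT1G22690), the higher one, held most of it, at 87.7 and 93.4, and the other 7 summed to 56.6 and 51.8. FAMA (AT3G24140), which specifies guard cells, was at 13.0 and 12.7, KAT1 (AT5G46240), a potassium channel, at 7.63 and 6.47, and GHR1 (AT4G20940), a receptor-like kinase that acts with SLAC1, at 7.36 and 5.31.

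Another list of 13 ABA output genes outside the 41 held larger differences than the response genes among the members. Of its 9 analysed genes 7 were lower, 5 by at least 1.5-fold and 3 by at least 2-fold, where 64.6%, 1.99% and 0.690% of all analysed loci were. The list was drawn up with earlier results of these data known, so these counts are description only. The median log2 ratio of the 9 was -0.74. The 2 higher genes were P5CS1 (AT2G39800), at 34.5 FPKM in wild-type plants and 35.3 in the mutant, and MAPKKK17 (AT2G32510), at 1.58 and 1.64. LTP4 (AT5G59310) was at 34.4 FPKM in wild-type plants and 1.07 in the mutant, and LTP3 (AT5G59320) at 34.8 and 2.45; these adjacent lipid transfer protein genes are close copies that can share reads. RD29A (AT5G52310) was at 75.5 and 32.3. RD29A, COR47 (AT1G20440) and KIN2 (AT5G15970), which make up the 5 with both LTP genes, are induced by cold as well as by ABA. RD29B (AT5G52300), whose promoter is driven mainly by ABA, was under the filter at 0.152 and 0.0783 FPKM, and RAB18 (AT5G66400), a dehydrin used as an ABA marker, had a log2 ratio of -0.33. The difference between this list and the members was not tested.

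Among 5 ABA transporter genes 4 were analysed, 3 higher and 1 lower, where 35.4% of all analysed loci were higher. ABCG40 (AT1G15520), an importer of ABA at the plasma membrane, was at 0.711 FPKM in wild-type plants and 1.61 in the mutant, with a log2 ratio of 0.61. It passed the filter through its mutant value alone, and 1.81% of all analysed loci were at least 1.5-fold higher. NPF4.6 (AT1G69850), another importer, was at 14.8 and 16.0, and ABCG31 (AT2G29940) at 1.76 and 1.66.

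**Figure D5:**
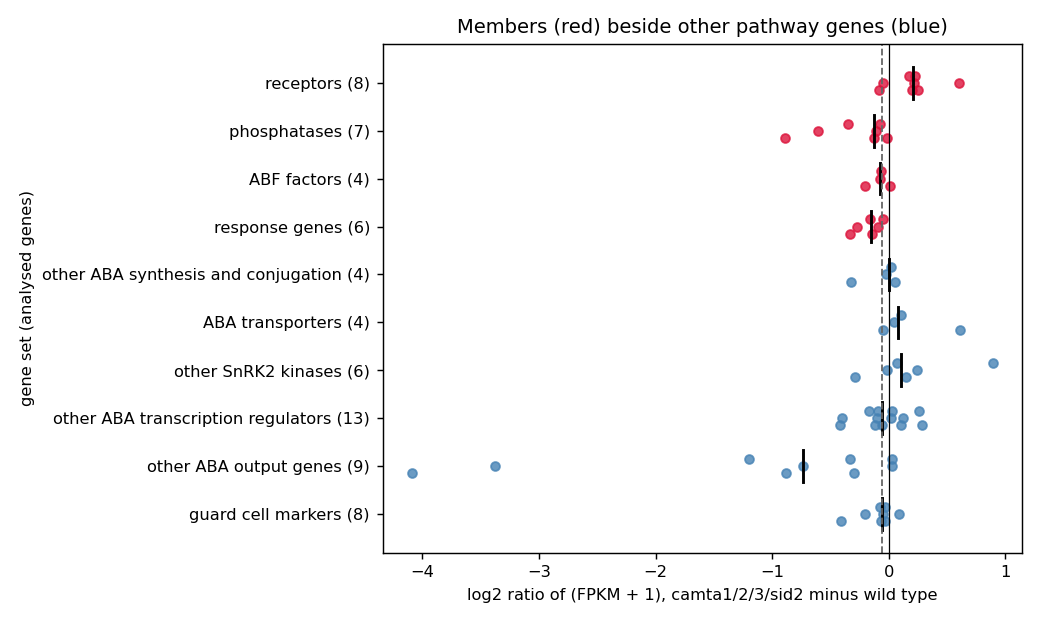
Log2 ratio of (FPKM + 1), mutant minus wild type, for analysed genes of 4 steps among the members (red) and of 6 further lists (blue); each point is a gene, black bars are medians and the dashed line is the median of all analysed loci. The receptor median is 0.21 and the phosphatase median -0.13, and the other ABA output genes reach from 0.03 down to -4.09. Centred on the dashed line, PYL4, HAB1 and RD22 change sides among the red points, and so do several blue points.

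Several facts of the whole table bear on these values. In the mutant CAMTA1 was at 3.30 FPKM against 13.6 in the wild type, CAMTA3 at 2.68 against 9.94, CAMTA2 at 6.32 against 9.25 and ICS1 at 3.73 against 4.56. The 5 seed markers, which include the storage proteins CRU1 and CRU3, were at or near 0 in both genotypes. Of the 5 root markers, CASP1 was at 0.940 and 1.57 FPKM, BGLU23, also an endoplasmic reticulum body protein, was as given above, and the others were at or near 0. Of the 41 members, 9 overlap a gene on the opposite strand in the TAIR10.1 annotation: ABA2, AAO3, PYL7, ABI1, SNRK2.3, ABF1, ABF3, ABF4 and SLAC1. The sources used here do not say whether reads were counted by strand, so reads of these genes and their partners may not be separated. NCED3, HAI1, HAI2 and PYL2 have no such partner.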

How the data were processed

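FPKM values were deposited by the authors as 1 column per genotype, per the file headers; the tools named are Cuffdiff, Cufflinks 2.1.1 and TopHat 1.4.1, and the build is TAIR10, per the submitters' processing notes. How the 3 libraries of a genotype were combined, and read counts, strandedness and depth, are not given in these sources. FPKM is not a count, so no count model was used.

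Differences are log2(FPKM + 1) in the mutant minus the wild type, for loci with at least 1 FPKM in either genotype. With 1 value per genotype no test was made. The 41 members, the pathway lists and the 2-fold mark were chosen with earlier results of these data known; the 1.5-fold mark was added after no member reached 2-fold. The text names all members, the 4 targeted genes and up to 3 analysed genes per list by size of log2 ratio; ABA list genes named beyond these, among them the NCED paralogues, FAMA, RD29B, RAB18, COR47 and KIN2, were chosen after their values were seen. The lists are other synthesis and conjugation genes, transporters, other PYL receptors, other SnRK2 kinases, other transcription regulators, other output genes, endoplasmic reticulum body genes, and guard cell, root and seed markers.

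Motifs were searched on both strands in the 250 bases before each RefSeq gene start of TAIR10.1, matched by locus identifier (32813 of 33557 loci, and all 41 members); the table itself holds no coordinates. A planned comparison of protein sequences was not made. The ratio procedure was run on wild-type values multiplied by fixed factors without added noise, which checks its arithmetic only. Python 3.11.15, numpy 2.4.6, pandas 2.3.3 and matplotlib 3.10.9 were used.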

Additional observations from a re-analysis of the deposited data

How the results depend on the processing

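The count of members at least 2-fold lower depended on the pseudocount: it was 0 with 1 FPKM added, 1 with 0.5 (NCED3) and 3 with 0.1 (NCED3, HAI1 and HAI2). In the same order, 0.690%, 0.841% and 1.1% of all analysed loci were at least 2-fold lower. With a filter of 5 FPKM, 1 member (HAI1) was at least 1.5-fold lower and 0 were higher, since NCED3, HAI2 and PYL2 lie under that level. Among all loci kept by that filter, 1.79% were at least 1.5-fold lower and 1.49% higher. HAI2 was no longer 1.5-fold lower after centring on the median of all loci, with a log2 ratio of -0.54, and CYP707A1 joined at a pseudocount of 0.1, with -0.70. The other settings tried were no filter, FPKM rescaled to the same sum in both genotypes, protein-coding loci only and, chosen after seeing the data, leaving out loci listed at 0. Of the 35 analysed members 30 kept 1 sign in every setting that gave them a value, and CYP707A2, HAB1, PYL4, RD22 and SNRK2.3 did not. Only centring and rescaling can change a sign, because the other settings leave the order of the genotypes as it is. All settings reuse the same 1 value per genotype, so a kept sign does not show that a difference would recur. The 5 FPKM filter gave no value for 8 of the 35, NCED3, HAI2 and PYL2 among them, which leaves 8 of 9 settings for these. No paired analysis was possible because the table gives 1 value per genotype, and for the same reason no replicate could be left out. Depth is unknown, so the precision of members near 1 FPKM cannot be stated.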
